A study of Mus musculus with 5 samples.

Results

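The TRIM genes are a family of ubiquitin ligase genes, described here in a comparison of mice with stroke and sham-operated mice. Members were the rows of the authors' deposited table whose gene symbol is Trim, a number and at most 1 letter. That pattern matched 68 rows, and Trim9 and its close relative Trim67 were left out, which gave 66 genes of 51912. No measured value entered this rule, which was set with earlier results of these data known. The RNA sequencing compared C57BL/6 mice with an ischemic stroke (3 libraries) and sham-operated C57BL/6 mice (2 libraries). In the stroke mice a filament closed the middle cerebral artery for 30 minutes, only animals whose cerebral blood flow fell by 80% or more stayed in the study, and their motor function was assessed at 24 hours. The labels give no genetic change for either group. Age, sampled tissue and sampling time are not stated in the labels used here. The neuronal genes Snap25 and Syt1 had means of 65803 and 52053 in the authors' deposited table, so neuronal RNA was abundant. The labels do not say whether the libraries came from separate animals, so p-values measure the spread between these libraries, which may be technical.

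TRIM proteins carry a RING finger, B-boxes and a coiled coil in that order, and the RING lets most of them transfer ubiquitin to target proteins. The domain that follows, such as B30.2/SPRY or NHL repeats, binds the target and sorts the family into classes. Many B30.2/SPRY members act in antiviral defence and are induced by interferon, whereas several NHL and COS box members are known from neurons, where they act on the cytoskeleton and on synapses.

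The authors' deposited table gives each gene 1 mean over all libraries, a log2 fold change of stroke over sham with its standard error, and a p-value. Whole reads per library were recovered from these columns (described under the processing of the data). Values per library are normalized reads, that is recovered reads divided by the library's size factor, a measure of relative depth. Size factors were 1.12 to 1.16 in the stroke libraries, 0.945 in the first sham library and 0.734 in the second. Library numbers follow the size factors and are not the replicate numbers of the labels, to which the libraries could not be tied. Each sham library stood apart in some tissue markers, first sham library 1. The 5 red blood cell genes summed to 2801 normalized reads there, 474 in sham library 2 and 67.2 to 230 in stroke, and all 5 were called lower in stroke. The 4 recovered choroid plexus genes summed to 1035 in sham library 1 and to 128 to 200 in the other libraries, and the 3 recovered hypothalamic genes to 710 there and 39.5 to 70.8 elsewhere. Sham library 2 was the lowest for the 5 microglial genes, with a sum of 3017 against 4965 to 6366 in the other libraries. It was also the lowest for the 2 recovered oligodendrocyte genes, with 2487 against 3536 to 5530. Of the 5 mural genes, Acta2 and Tagln were called higher in stroke. The part of these differences in the values of the TRIM genes was not tested.

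No TRIM gene passed the test. Of the 66 genes, 39 had an adjusted p-value, 22 had reads but too few for one, and 5 had no read. At an adjusted p below 0.05, 0 of the 39 genes were called higher and 0 lower in the authors' deposited table, against 1.56% of all 17420 genes tested. Unadjusted p-values below 0.05 were found for 4 of the 39 genes, Trim35, Trim25 and Trim16 with higher and Trim59 with lower values in stroke, against 10.5% of all genes tested. Limma on the recovered reads of 38 of these genes gave 0 calls, against 0.0165% of all genes it tested, and 4 genes at an unadjusted p below 0.05, against 7.68%. Reads were searched for in all tested genes only up to a mean of 1000, so shares over recovered genes leave out most abundant genes. Of the 39 tested members, 14 had a mean of at least 1000. Fold changes were positive for 27 of the 39 genes (69.2%), against 47.2% of all 17420 genes tested. Among the 27, the log2 fold changes of Trim66, Trim44 and Trim21 were only 0.00034, 0.00097 and 0.0027. All fold changes rest on the same 2 sham libraries, so the genes are not independent. The median log2 fold change of the 39 genes was 0.10, that of all genes tested was -0.02, and the range over the 39 genes was -0.68 to 1.13. Standard errors on the log2 scale ran from 0.19 to 0.88.

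**Figure D1:**
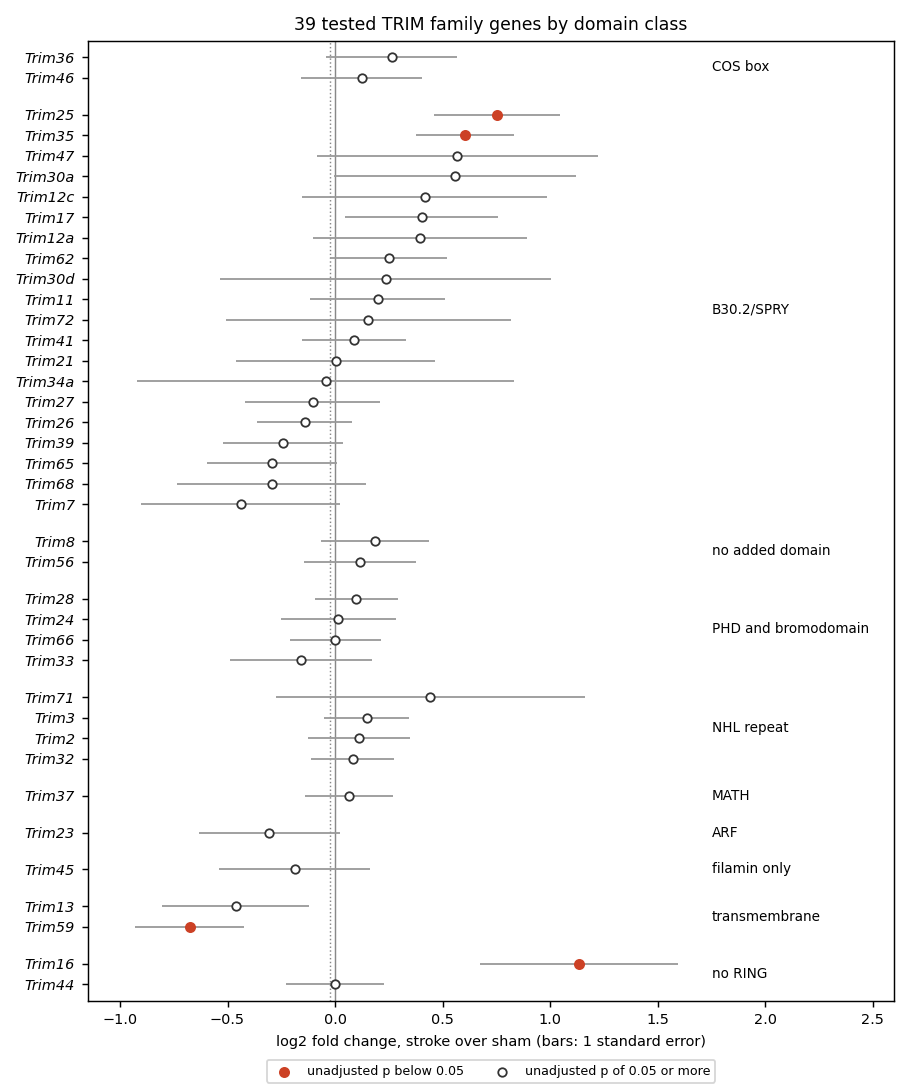
Log2 fold change of stroke over sham (x axis) for the 39 tested TRIM genes, grouped by domain class, as given in the authors' deposited table. Points are fold changes, bars 1 standard error, filled points an unadjusted p below 0.05 and the dotted line the median of all tested genes (-0.02). The 4 filled points are Trim25, Trim35, Trim16 and Trim59.

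The data bounded the size of a change more tightly for abundant genes. The 95% interval of the fold change lay within 1.5-fold in both directions for 10 of the 39 genes, and within 2-fold for 23. The 10 genes were Trim2, Trim3, Trim24, Trim26, Trim28, Trim32, Trim37, Trim41, Trim44 and Trim66. For Trim28 the interval ran from 0.825-fold to 1.39-fold. For Trim34a, at 19.8 mean normalized reads, it ran from 0.295-fold to 3.19-fold.

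A few members supplied most of the family's reads. Trim2, Trim37 and Trim44 together held 50.6% of the summed means of the 66 genes. Per kilobase of exon the order of the means was Trim44 (1788 normalized reads per kilobase), Trim37 (1442), Trim32 (1332), Trim35 (989), Trim8 (747), Trim2 (623), Trim3 (609) and Trim28 (560). Trim44 has a ubiquitin-protease type zinc finger in place of a RING, and Trim37 restrains centrosome assembly. For Trim2, a ligase for the neurofilament light chain, 2 sets of reads remained possible, so no values per library are given. For Trim37 and Trim44 the set was chosen among 901 and 965 by the dispersion rule and is less certain than the others. Trim37 had 11026, 11644 and 9088 normalized reads in stroke libraries 1 to 3, and 9809 and 10449 in sham libraries 1 and 2. Trim44 had 10945, 10306 and 9044 in stroke, and 8550 and 11634 in sham. In both genes the groups overlapped. Their log2 fold changes were 0.06 for Trim37 (SE 0.20) and 0.00 for Trim44 (SE 0.23) in the authors' deposited table. Summed over the recovered tested genes, the family had 56127, 52599 and 51914 normalized reads in stroke and 48431 and 53169 in sham, which overlap.

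**Figure D2:**
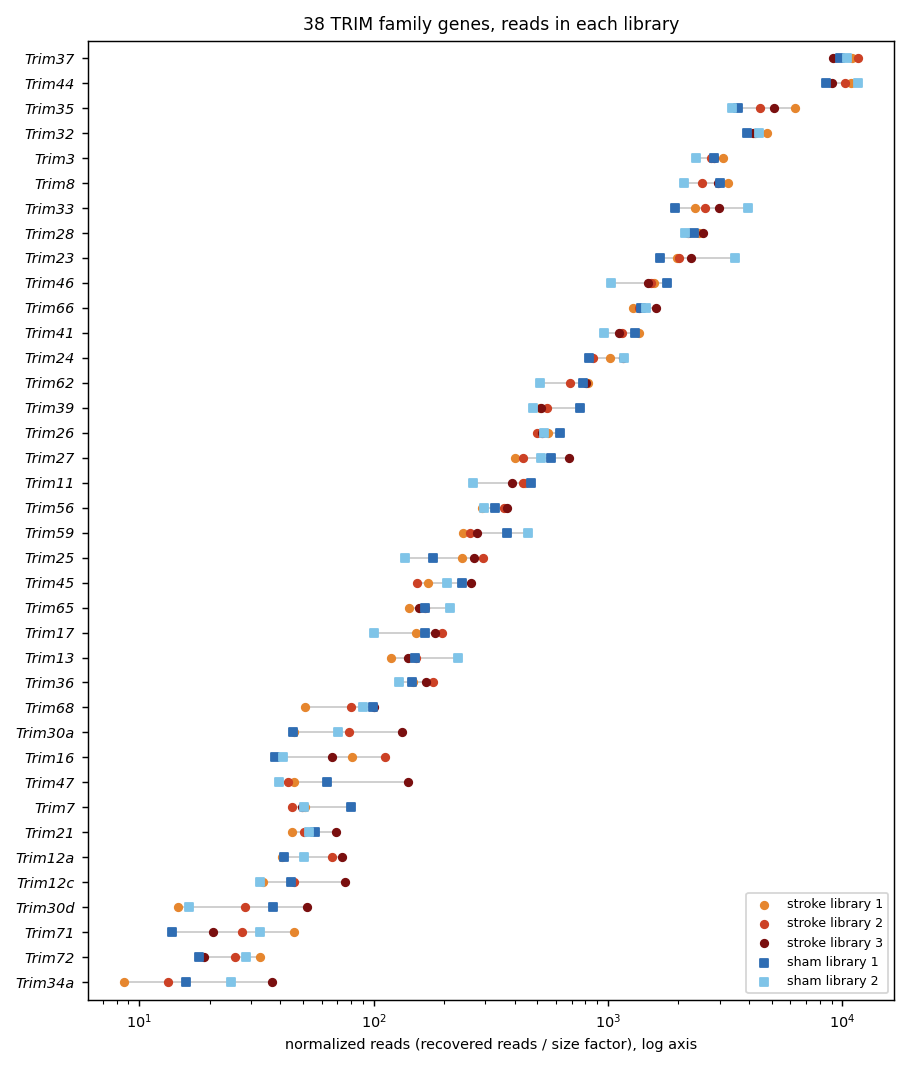
Normalized reads on a log axis (x) for the 38 tested TRIM genes with recovered reads, ordered by mean. Circles are stroke libraries, squares sham libraries, and grey lines join the lowest and highest library. Circles lie to the right of both squares for Trim35, Trim25, Trim16 and Trim36, and to the left for Trim59 and Trim65.

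The stroke libraries all lay above both sham libraries in 4 of the 38 recovered genes, Trim35, Trim25, Trim16 and Trim36, against 11.7% of the 12127 genes recovered and tested. They all lay below in 2 genes, Trim59 and Trim65, against 14% of those genes. The other 32 genes overlapped. Neither share of the family was above that among all genes recovered, most of which had a mean up to 1000.

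Trim35 encodes a B30.2/SPRY ligase known to act on the interferon regulatory factor IRF7 and on pyruvate kinase. The gene lies on chromosome 14 at 66297031 to 66311424 (GRCm38, forward strand, protein coding). It had 6311, 4448 and 5124 normalized reads in stroke libraries 1 to 3, against 3582 and 3382 in sham libraries 1 and 2. All stroke libraries were higher, and the sham libraries differed little from each other. In the authors' deposited table its log2 fold change was 0.60 (SE 0.23, p = 0.0084, adjusted p = 0.209), the largest among the 14 members with a mean of at least 1000. Trim35 shares 99 of 4618 exon bases with the opposite-strand gene 1700001G11Rik, whose mean was 7.23.

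Trim25 encodes the ligase that puts ubiquitin chains on the viral RNA sensor RIG-I and is itself induced by interferon. It lies on chromosome 11 at 88999376 to 89020293 (forward strand). Its normalized reads were 238, 292 and 269 in stroke and 179 and 136 in sham, with no overlap. The authors' deposited table gives a log2 fold change of 0.75 (SE 0.29, p = 0.0103, adjusted p = 0.223), or 1.68-fold with an interval of 1.13 to 2.51. Ddx58, the gene of RIG-I, had 133, 176 and 226 normalized reads in stroke and 132 and 168 in sham, which overlap.

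Trim16, a member without a RING that takes part in the clearance of damaged lysosomes, had the largest fold change of the tested members and few reads. It lies on chromosome 11 at 62820231 to 62850808 (forward strand). The stroke libraries had 81.2, 112 and 66.3 normalized reads and the sham libraries 38.1 and 40.9. The sham libraries were alike, and stroke library 2 was the highest. In the authors' deposited table its log2 fold change was 1.13 (SE 0.46, p = 0.0136, adjusted p = 0.260). Trim16 shares 237 of its 4568 exon bases with Fbxw10 on the same strand. The counting of reads in shared exons is not given in the sources used here.

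Trim59, which encodes a ligase held in the endoplasmic reticulum membrane, had the smallest p-value of the family and lower values in stroke. It lies on chromosome 3 at 69035288 to 69044755 (reverse strand). Normalized reads were 240, 257 and 277 in stroke and 369 and 456 in sham. The stroke libraries lay close together and below both sham libraries. In the authors' deposited table Trim59 had a log2 fold change of -0.68 (SE 0.25, p = 0.0079, adjusted p = 0.202). Trim13, the other membrane-anchored member, which serves in the degradation of endoplasmic reticulum proteins, had 119, 152 and 141 normalized reads in stroke and 150 and 229 in sham. The groups overlapped for Trim13, and in the authors' deposited table its log2 fold change was -0.46 (SE 0.34, adjusted p = 0.761).

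None of the 4 genes Trim35, Trim25, Trim16 and Trim59 was called by limma on the recovered reads of all 5 libraries (adjusted p = 0.604 for each). With sham library 1 left out, which leaves 1 sham library assumed to vary like the stroke libraries, limma called 3 TRIM genes higher, against 7.68% of the genes tested, and 3 lower, against 9.53%. Those higher were Trim25 (adjusted p = 0.0269), Trim46 (0.0306) and Trim11 (0.0484). Those lower were Trim23 (0.0159), Trim59 (0.0297) and Trim33 (0.0456). These 6 of 38 recovered genes are set against 17.2% of all genes called in that fit. With sham library 2 left out 0 TRIM genes were called, against 2.68% of all genes, and with any stroke library left out 0 TRIM genes and 0 of all genes were called.

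Interferon-inducible members were taken as a list of 14 genes, of which 9 were tested. None was called, against 1.56% of all genes tested. Fold changes were positive for 7 of the 9 genes, against 47.2% of all genes tested. Of these 7, 4 lie in 1 group on chromosome 7, and Trim21 had a log2 fold change of only 0.0027. The median log2 fold change of the 9 genes was 0.24, against -0.02 for all genes tested. The pattern of these genes lay within the stroke group. Stroke library 3 was the highest of all 5 libraries for 7 of the 9 genes, whereas it was the highest for 14.1% of the genes recovered. Normalized reads were over 1.5-fold higher in stroke library 3 than in stroke library 1 for 6 of the 9 genes, against 17% of the genes recovered. This comparison of libraries was chosen after the values were seen, and no test was made of it. All 5 tested genes of 1 group on chromosome 7 were among the 7 and among the 6. How reads split among the genes of that group is uncertain, as described below, so these genes are not separate observations.

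Sequence around the start of these genes is shown because 7 of them share a short element there. The element is GAAA, any 2 bases and GAAA again, read on either strand, the core to which interferon-activated factors such as ISGF3 and the IRF proteins are known to bind. It was searched in RefSeq promoters (GRCm38.p6), from 250 bases before to 50 after each start, where overlapping matches were allowed. It occurred in 3.99% of the 27025 genes with a promoter in that table, in 8 of the 13 interferon-inducible TRIM genes with a promoter there, and in 1 of the 38 other TRIM genes with one, Trim2. The 8 genes were Trim5, Trim12a, Trim12c, Trim21, Trim26, Trim30a, Trim30d and Trim34a. Below are the 100 bases from 70 before to 30 after the start, 5′ to 3′ along the gene's strand, with the element in capitals. The match in Trim26 lies further upstream and is not shown.
Trim30a, chr7:104465164-104465263, reverse strand: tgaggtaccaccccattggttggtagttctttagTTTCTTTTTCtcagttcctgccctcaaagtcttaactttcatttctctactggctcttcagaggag
Trim30d, chr7:104507820-104507919, reverse strand: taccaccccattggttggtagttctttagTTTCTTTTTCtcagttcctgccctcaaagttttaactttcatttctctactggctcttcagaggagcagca
Trim34a, chr7:104244387-104244486, forward strand: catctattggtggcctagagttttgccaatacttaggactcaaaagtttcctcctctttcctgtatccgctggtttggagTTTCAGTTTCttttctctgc
Trim12a, chr7:104315466-104315565, reverse strand: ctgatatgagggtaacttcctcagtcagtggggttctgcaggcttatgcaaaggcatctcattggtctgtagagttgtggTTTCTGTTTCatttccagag
Trim12c, chr7:104353320-104353419, reverse strand: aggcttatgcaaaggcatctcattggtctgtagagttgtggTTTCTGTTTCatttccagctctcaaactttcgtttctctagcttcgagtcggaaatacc
Trim5, chr7:104288077-104288176, reverse strand: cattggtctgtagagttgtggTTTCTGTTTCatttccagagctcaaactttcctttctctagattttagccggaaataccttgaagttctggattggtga
Trim21, chr7:102565453-102565552, reverse strand: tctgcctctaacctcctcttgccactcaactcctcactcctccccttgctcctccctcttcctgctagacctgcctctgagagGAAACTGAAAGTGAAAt
Trim21 carried 2 overlapping matches, and the other windows shown 1 each. Trim30a has a second promoter in that table, which holds 1 match and is not shown. Trim30a and Trim30d shared a run of 59 identical bases, as did Trim12a and Trim12c, and Trim5 shared 41 with Trim12a. Apart from Trim21, these genes lie in 1 group of 10 TRIM genes on chromosome 7. Near-identical copies of a gene compete for the same reads, and how reads with several alignments were treated is not given in the sources used here. How reads split among Trim5, Trim12a, Trim12c, Trim30a, Trim30b, Trim30c, Trim30d, Trim34a and Trim34b is therefore uncertain.

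Trim30a, a brake on Toll-like receptor signalling in mouse macrophages, had 45.8, 78.7 and 132 normalized reads in stroke libraries 1 to 3, and 45.5 and 70.9 in the sham libraries. Trim30d had 14.7, 28.3 and 52.0 in stroke, and 37.0 and 16.4 in sham. Trim34a had 8.64, 13.3 and 36.7 in stroke, and 15.9 and 24.5 in sham. In each of these genes stroke library 3 was the highest, and stroke library 1 lay below both sham libraries or next to the lower of them. Trim12c had 33.7, 46.0 and 75.2 in stroke, and 44.5 and 32.7 in sham. Trim12a had 40.6, 66.3 and 73.5 in stroke, and 41.3 and 50.4 in sham. Trim21, the cytosolic receptor for antibody-coated particles, varied less, with 44.9, 50.4 and 69.0 in stroke and 56.1 and 53.1 in sham. The groups overlapped for all 6 genes. Summed over them, the libraries had 188, 283 and 438 normalized reads in stroke and 240 and 248 in sham, so the sham libraries lay close together and the stroke libraries spread on both sides of them. Summed over all 9 tested genes of the list, with the more abundant Trim25, Trim26 and Trim56, the libraries had 1272, 1433 and 1603 in stroke and 1376 and 1217 in sham. Stroke library 1 then lay between the sham libraries. The authors' deposited table gives log2 fold changes of 0.56 for Trim30a (SE 0.56), 0.42 for Trim12c (SE 0.57), 0.39 for Trim12a (SE 0.50), 0.24 for Trim30d (SE 0.77), 0.00 for Trim21 (SE 0.46) and -0.04 for Trim34a (SE 0.88). Of the more abundant listed members, Trim56, which acts with the DNA-sensing STING pathway, had 290, 359 and 371 in stroke and 330 and 297 in sham. Trim26, a ligase for the factor IRF3, had 557, 499 and 525 in stroke and 627 and 535 in sham. Both overlapped, and the authors' deposited table gives log2 fold changes of 0.11 for Trim56 (SE 0.26) and -0.14 for Trim26 (SE 0.22).

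**Figure D3:**
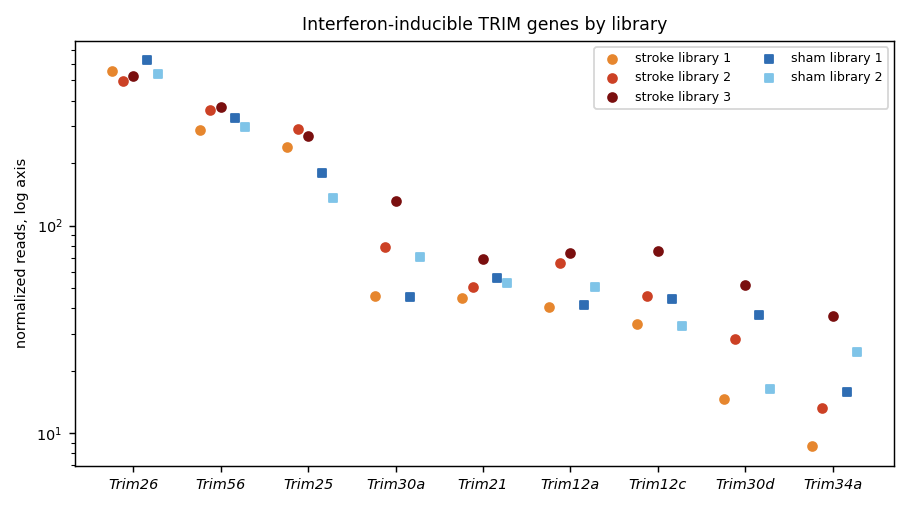
Normalized reads on a log axis (y) for the 9 tested interferon-inducible TRIM genes (x), with 1 point per library, circles for stroke and squares for sham. Stroke library 3 (darkest circle) is the highest point for 7 genes, all except Trim25 and Trim26.

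In a list of 15 partner genes of RIG-I signalling and the type I interferon response, none was called, and the smallest adjusted p was 0.0958, for Ifit1. Stroke library 3 was the highest of all 5 libraries for 7 of the 15, against 14.1% of the genes recovered, and the highest of the stroke libraries for 12, against 43.6%. It was over 1.5-fold above stroke library 1 for 9 of the 15, against 17%. Isg15, a ubiquitin-like modifier, had 13.0, 23.9 and 42.1 normalized reads in stroke and 21.2 and 5.45 in sham. The stroke libraries all lay above both sham libraries in 3 of the 15 genes, against 11.7% of the genes recovered. The 3 genes were Ifit1, Ifit3 and Irf7. They all lay below in 1 gene, Rnf135, against 14%. Ifit1 had 128, 85.8 and 105 normalized reads in stroke and 48.7 and 36.8 in sham. Its log2 fold change was 1.31 (SE 0.43) in the authors' deposited table.

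The NHL repeat members, which bind RNA or neuronal proteins, had positive fold changes in all 4 tested genes, against 47.2% of all genes, and none was called. With sham library 1 left out, the limma log2 fold changes of Trim32 and Trim71 were -0.0040 and -0.14. Trim32, a ligase of neural progenitors and muscle, had 4792, 4242 and 4162 normalized reads in stroke and 3912 and 4402 in sham. Trim3, which acts on postsynaptic scaffolds, had 3087, 2751 and 2842 in stroke and 2845 and 2383 in sham. Both overlapped between groups. Trim71, a gene of early embryos and stem cells, was rare, with 45.8, 27.4 and 20.6 in stroke and 13.8 and 32.7 in sham. The log2 fold changes in the authors' deposited table were 0.08 for Trim32 (SE 0.19), 0.15 for Trim3 (SE 0.20), 0.11 for Trim2 (SE 0.24) and 0.44 for Trim71 (SE 0.72). A list of 8 substrates and partners of neuronal TRIM proteins had 0 calls, with fold changes from -0.09 to 0.33 on the log2 scale.

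The members with a PHD finger and bromodomain work in the nucleus, where Trim28 is the corepressor of the KRAB zinc finger proteins. Trim28 had 2439, 2201 and 2539 normalized reads in stroke and 2337 and 2132 in sham. Trim66 had 1278, 1355 and 1609 in stroke and 1378 and 1450 in sham, and Trim24, a coregulator of nuclear receptors, had 1017, 861 and 1156 against 827 and 1176. The groups overlapped in each of the 3 genes. Trim33, which acts on SMAD4 in TGF-beta signalling, had 2350, 2593 and 2975 in stroke, all of which lay between the sham values of 1927 and 3972. The log2 fold changes in the authors' deposited table were 0.10 for Trim28 (SE 0.19), 0.02 for Trim24 (SE 0.27), 0.00 for Trim66 (SE 0.21) and -0.16 for Trim33 (SE 0.33). Of 10 partner genes of KAP1 and TIF1 repression 0 were called. In the authors' deposited table the log2 fold change furthest from 0 among them was -0.55 (SE 0.28, adjusted p = 0.466), for Setdb1, the histone methyltransferase that Trim28 recruits.

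Of the COS box members, which bind microtubules, 2 of 6 had enough reads. Trim46, which organizes parallel microtubules at the start of the axon, had 1576, 1533 and 1487 normalized reads in stroke, close together and between the sham values of 1780 and 1030. Trim46 shares 239 of 3792 exon bases with the opposite-strand gene Krtcap2. Trim36 had 148, 179 and 168 in stroke and 146 and 128 in sham, so the groups were apart by a narrow margin. In the authors' deposited table the log2 fold change of Trim36 was 0.26 (SE 0.30, adjusted p = 0.910). Trim23, with an ARF-type GTPase domain and a role in autophagy, had 1976, 2016 and 2252 in stroke, between the sham values of 1667 and 3480. Trim45, with a filamin repeat, had 170, 154 and 261 in stroke and 238 and 206 in sham, and overlapped. Trim8, which activates the kinase TAK1, had 3252, 2527 and 2949 in stroke and 3009 and 2108 in sham. In the authors' deposited table the log2 fold changes were 0.12 for Trim46 (SE 0.28), -0.31 for Trim23 (SE 0.33), -0.19 for Trim45 (SE 0.35) and 0.18 for Trim8 (SE 0.25). Of 12 genes of NF-kB and TAK1 signalling 0 were called. The smallest p of that list in the authors' deposited table was that of Nfkbia, the inhibitor of NF-kB, with a log2 fold change of 0.56 (SE 0.28, p = 0.0475, adjusted p = 0.464).

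The remaining tested B30.2/SPRY members overlapped between groups, except Trim65. Trim65, a ligase for the RNA sensor MDA5, had 142, 165 and 156 normalized reads in stroke and 166 and 213 in sham, so the groups were separated only by 165 in stroke library 2 and 166 in sham library 1. Trim47, whose gene overlaps that of Trim65 by 225 exon bases on the same strand, had 141 in stroke library 3 and 39.5 to 63.5 in the other libraries. Trim27 had 403, 435 and 684 in stroke and 573 and 518 in sham. In both genes stroke library 3 was the highest. Trim17, known to promote the death of cultured neurons, had 151, 195 and 183 in stroke and 165 and 101 in sham, and shares 708 of 3736 exon bases with Hist3h2a on the same strand. Trim11 had 441, 436 and 388 in stroke and 468 and 266 in sham. Trim39 had 512, 549 and 519 in stroke and 763 and 480 in sham. In Trim11 and Trim39 the stroke libraries lay between the sham libraries. The log2 fold changes of these 6 genes in the authors' deposited table were -0.29 for Trim65 (SE 0.30), 0.57 for Trim47 (SE 0.65), -0.10 for Trim27 (SE 0.31), 0.40 for Trim17 (SE 0.36), 0.20 for Trim11 (SE 0.31) and -0.24 for Trim39 (SE 0.28). Trim41 had 1354, 1146 and 1111 normalized reads in stroke and 1299 and 963 in sham, and Trim62 had 819, 688 and 803 against 780 and 514. Trim68 had 51.0, 80.4 and 100 in stroke and 99.5 and 89.9 in sham. Trim7 had 51.0, 45.1 and 49.3 in stroke and 80.4 and 50.4 in sham. Trim72, a membrane repair protein of muscle, had 32.8, 25.6 and 18.8 in stroke and 17.99 and 28.6 in sham. The authors' deposited table gives these 5 genes log2 fold changes of 0.09, 0.25, -0.30, -0.44 and 0.15, in that order, with standard errors from 0.24 to 0.66.

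In most members the log2 ratio of the sham libraries was larger in size than the log2 fold change of the groups. The absolute log2 ratio of the sham libraries exceeded the absolute log2 fold change in 31 of the 38 recovered genes, against 71.2% of all genes recovered. A ratio of single libraries varies more than a difference of group means, so a majority can arise without any effect of stroke. The count alone therefore says nothing about such an effect. A pseudocount of 1 entered the log2 ratio of the sham libraries and not the authors' fold change. A difference over 1.5-fold between the sham libraries was found for 15 of the 38 genes, against 52.1% of all genes recovered, and for 11 of the 33 with a mean of at least 50, against 43.9%. Most of the genes behind these shares had a mean up to 1000, whereas 14 of the tested members had a mean of at least 1000. The family and the genes recovered were therefore not matched in abundance. Trim23 and Trim33 were 2.09-fold and 2.06-fold higher in sham library 2. Trim46 and Trim11 were at 0.579 and 0.568 of the level of sham library 1. In 7 of the 38 genes the sham libraries lay on both sides of all stroke libraries. The share of all genes recovered with that order was not computed, so this count has no comparison. The sham libraries lay close together for Trim16 and Trim35, where sham library 2 was at 1.07 and 0.944 of the level of sham library 1.

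**Figure D4:**
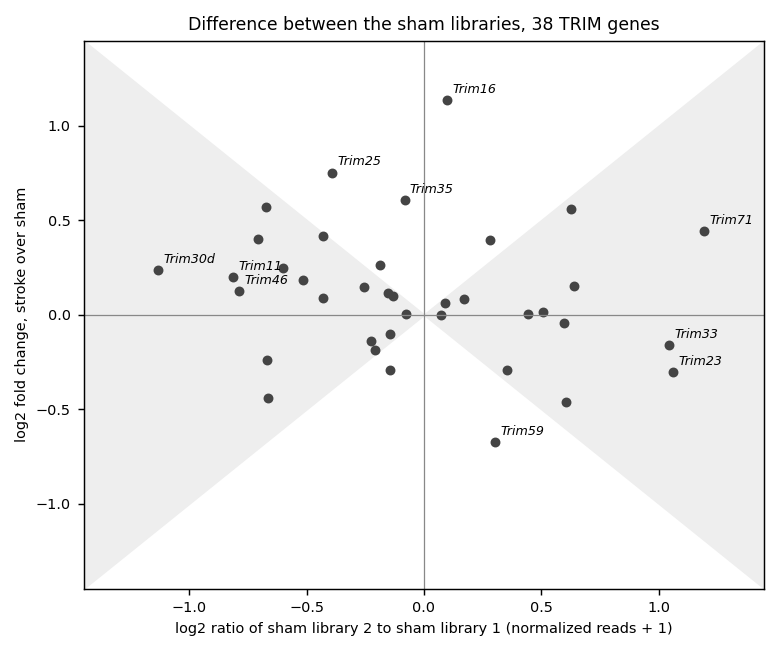
Log2 fold change of stroke over sham (y) against the log2 ratio of sham library 2 to sham library 1 (x) for the 38 tested TRIM genes with recovered reads, 1 point per gene. In the grey area the sham libraries differ by more than the fold change, which holds for 31 genes. A ratio of single libraries varies more than a difference of group means, so a majority there can arise without any effect of stroke. Trim16, Trim25, Trim35 and Trim59 lie outside the grey area.

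Many members were too rare to be tested. The 22 genes with reads and no adjusted p had 1 to 46 reads over all 5 libraries. Muscle ligases were among them, with 20 reads for Trim63 and 21 for Trim54, while Trim55 had none. Trim58 and Trim10, which are known from red blood cell precursors, had 18 and 5 reads. Trim58 had 3, 3 and 4 reads in stroke and 5 and 3 in sham, before division by the size factors. All reads lay in the sham group for Trim50 (3 reads) and Trim61 (1), and in the stroke group for Trim69 (3), Trim31 (2), Trim52 (1) and Trim34b (1). Counts of 3 or fewer carry no comparison. Of the 5 untested interferon-inducible genes, Trim30b had 2, 6 and 17 reads in stroke and 2 and 3 in sham, and Trim30c had 0, 1 and 6 in stroke and 2 and 0 in sham. Trim5 had 6.91, 9.72 and 12.5 normalized reads in stroke and 4.23 and 12.3 in sham, so stroke library 3 and sham library 2 were nearly level. Trim14 had 4, 12 and 8 reads in stroke and 9 and 5 in sham, with stroke library 2 the highest, and Trim34b had its single read there. Trim6 had 9, 3 and 10 reads in stroke and 2 and 1 in sham. Trim43a, Trim29, Trim38 and Trim40 had 46, 34, 24 and 17 reads. Trim15 and Trim80 had 7 each, and Trim42 had 3. Besides Trim55, no read was counted for Trim43b, Trim43c, Trim60 and Trim75.

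Of the 5 TRIM genes with other symbols, 4 were tested and 0 were called. Mid1, a COS box ligase of midline development, had 89.0, 216 and 111 normalized reads in stroke and 59.3 and 43.6 in sham, without overlap. For Mid1 the authors' deposited table gives 1.43 as the log2 fold change (SE 0.51, p = 0.0049, adjusted p = 0.154). Mid2, its paralog, had 1360, 1155 and 1217 in stroke and 918 and 1401 in sham. Pml, the gene of nuclear bodies, had 250, 302 and 312 in stroke and 354 and 324 in sham, all stroke libraries being lower. Mid2 and Cmya5 overlapped between groups. Mefv, the pyrin gene, had a mean of 1.42 and was not tested.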

How the data were processed

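RNA from 2 sham and 3 stroke samples was sequenced as poly(A) libraries with a KAPA stranded mRNA-seq kit, per the labels' protocols. The submitters' processing notes list the build GRCm38 and the tools DESeq2 1.14.1, featureCounts 1.5.1, STAR 2.5.2b and FastQC. Annotation release and strand setting: not given in the sources used here. Deposited by the authors, per the file headers, was a DESeq2 results table with 1 row per gene and no values per library. The authors' mean per gene is a signal, made from reads divided by size factors and averaged over the 5 libraries. The authors' log2 fold change and its standard error are on the log2 scale. Their Wald statistic is a score, and the deposited p-value and Benjamini-Hochberg adjusted p-value complete the row. The file does not name the numerator. The mean took 5 values among genes with a single read in all, 3 with a positive and 2 with a negative fold change, so positive was read as higher in stroke. Total reads per library are not given, so relative depth is known from the size factors alone.

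Reads per library were recovered with numba 0.67.0 and numpy 2.4.6 (Python 3.11.15). The negative binomial fit behind such a table was rebuilt, and a set of 5 whole numbers was accepted when it gave the deposited mean, the standard error and the fold change to within 7e-10. Where several sets did so, the set whose dispersion met the rule of the table's own shrinkage to within 0.002 was kept. This second step decided the reads of Trim3, Trim8, Trim28, Trim32, Trim33, Trim35, Trim37 and Trim44, and left 2 sets for Trim2. The tolerance was tightened once, after Trim2 had kept more sets. All tested genes with a mean up to 1000 were searched. Above that mean only the TRIM genes, Trim9 and part of the listed genes were searched. For genes with a mean above 3500, each library was limited to within 2.5 SD of its group's mean. That limit applied to Trim2, Trim32, Trim35, Trim37 and Trim44. A single set was found for 12159 of 12246 genes tried, and of 300 genes none was accepted (0) once its mean had been falsified, whereas 297 were with their true mean. In simulated data of the stroke against sham comparison, the search found the right reads for 200 of 200 genes. The simulated and the falsified genes were drawn from those with a mean up to 1000, and the dispersion rule was not used. The choice of reads for the more abundant members was therefore not tested.

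Calls used the authors' test at an adjusted p below 0.05. As an alternative, log2 of normalized reads plus a pseudocount of 1 entered limma 3.58.1 (R 4.3.3) with trend and robust variance. In a simulation of the stroke against sham comparison with 12127 genes it called 18 of 100 genes changed 2-fold and 86 of 100 changed 4-fold, and 5 unchanged genes. Other alternatives were another adjustment, a filter on low means, a test against a fold of 1.5, centring, and leaving out each library. Exon lengths, overlaps and coordinates are from GENCODE M21 on GRCm38, in which all 66 genes were found, and promoters are from RefSeq on GRCm38.p6. Every tested member is named with its value or its class. Untested members are named by their reads. The members, domain classes and gene lists were chosen with earlier results of these data known.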

Additional observations from a re-analysis of the deposited data

How the results depend on the processing

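With all 5 libraries the count of TRIM genes called stayed at 0 in both directions under every alternative run: adjustment over all 31651 genes with a p-value, a filter on low means, a test against a fold of 1.5, centring on the median of all genes, the addition of TRIM genes with other symbols, and limma with a pseudocount of 1 or 5. The smallest adjusted p of a member under the first 4 was 0.355, 0.264, 1.0 and 0.168. Few genes of any kind were called in these runs. Of all genes, the first 4 called 187 of 31651, 142 of 11519, 27 of 17420 and 295 of 17420. Limma with a pseudocount of 1 called 0.0165% of the genes it tested. With 1 library left out the calls ranged from 0 to 3 higher and from 0 to 3 lower, and the 3 came from leaving out sham library 1. The cause was not tested. No paired analysis was possible because the authors' table carries no replicate numbers and the recovered libraries cannot be tied to those in the labels. The median log2 fold change of the tested members, 0.10, was 0.12 after centring, 0.11 over every member with a read, 0.08 over members past the filter on low means, and 0.03 to 0.13 with 1 library left out. With limma on all libraries only Trim21 (-0.019 and -0.016 with a pseudocount of 1 and 5) and Trim66 (-0.0063 and -0.0062) changed sign, from log2 fold changes near 0. With 1 library left out the log2 fold change changed sign in 20 of 38 genes, over these ranges: Trim11 (-0.15 to 0.66), Trim21 (-0.19 to 0.11), Trim23 (-0.74 to 0.32), Trim24 (-0.23 to 0.28), Trim27 (-0.38 to 0.0030), Trim30d (-0.39 to 0.74), Trim32 (-0.0040 to 0.17), Trim33 (-0.60 to 0.45), Trim34a (-0.82 to 0.16), Trim37 (-0.016 to 0.16), Trim39 (-0.54 to 0.13), Trim41 (-0.12 to 0.32), Trim44 (-0.21 to 0.24), Trim46 (-0.22 to 0.57), Trim47 (-0.17 to 0.71), Trim62 (-0.024 to 0.58), Trim66 (-0.10 to 0.063), Trim71 (-0.14 to 1.05), Trim72 (-0.18 to 0.46) and Trim8 (-0.056 to 0.46). Limma called 18 of 100 simulated 2-fold changes, so most changes of that size would be missed by limma, and its count of 0 does not bound them. The authors' fold changes had 95% intervals within 2-fold for 23 of the 39 tested members.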
